A study of Mus musculus with 8 samples.

Results

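The CD28 and B7 family genes Cd28, Icos, Ctla4, Pdcd1, Btla, Cd80, Cd86, Cd274, Pdcd1lg2 and Icosl were followed across 8 Affymetrix arrays of sorted mouse CD4+ T cells. They were chosen by name with earlier results of these data known, so the shares over all genes set beside them below do not test the set. Every probe set that the platform annotation assigned to 1 of these symbols was kept. This gave 18 probe sets for 10 genes, of 45037 non-control probe sets and 18193 genes in all. Ctla4, Pdcd1, Btla, Cd274 and Pdcd1lg2 had 1 probe set each, Cd28, Cd86 and Icosl had 2, Icos had 3 and Cd80 had 4. Unless stated otherwise, a gene's value is that of its main probe set, the one highest on average.

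The arrays were labelled mutant EGFP-positive (n = 3), WT EGFP-positive (n = 3), mutant EGFP-negative (n = 1) and WT EGFP-negative (n = 1). In all of these mice the X-linked gene Foxp3, which encodes the master transcription factor of regulatory T cells, carried a tag of enhanced green fluorescent protein (EGFP). The tagged allele was wild type (WT) or a mutant called delta, and per the series' title the mutant protein is not functional. The EGFP-positive cells came from hemizygous males, and the EGFP-negative fraction is the CD4+ cells sorted for lack of the tag. The labels name no strain, age, tissue or pooling of animals and do not say that replicates came from separate animals. The p-values therefore reflect only how far these samples spread, which could be technical.

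CD28 is the main costimulatory receptor of T cells and binds CD80 and CD86 on antigen-presenting cells. CTLA-4 binds the same ligands more tightly and counteracts CD28, and regulatory T cells carry it constitutively. ICOS is a costimulatory receptor induced by activation and binds ICOS ligand. PD-1, encoded by Pdcd1, is an inhibitory receptor for PD-L1 (Cd274) and PD-L2 (Pdcd1lg2), and BTLA is an inhibitory receptor that binds a member of the TNF receptor family. In the mouse, activated T cells can also carry several of the B7 ligands themselves.

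The Foxp3 probe set read 11.1, 11.51 and 11.21 on the log2 scale in the arrays labelled mutant EGFP-positive and 6.14 in the array labelled mutant EGFP-negative. Arrays labelled WT EGFP-positive gave 4.75, 4.86 and 4.64, and the one labelled WT EGFP-negative gave 4.52, where the median of all probe sets and arrays is 5.75. The low WT EGFP-positive reading goes against the label, so every direction between alleles below rests on labels. Whether it reads the part of the transcript changed in the alleles is not known here. Il2ra, the IL-2 receptor alpha chain typical of regulatory T cells, ranged over 9.06 to 9.45 in mutant EGFP-positive arrays and over 9.82 to 10.02 in WT EGFP-positive ones, against 7.47 and 5.38 in the mutant and WT EGFP-negative arrays. Of 9 regulatory T cell markers, 1 (Foxp3) rose and 5 fell in the mutant EGFP-positive arrays relative to the WT EGFP-positive arrays: Gpr83 (-1.93), Itgae (-1.73), Nrp1 (-1.39), Il2ra (-0.75) and Izumo1r (-0.56), with limma adjusted p of 0.0033 to 0.019 for these 5. Relative to the WT EGFP-negative array 8 of the 9 rose in the WT EGFP-positive arrays, and the part of this shift in the members' differences was not tested. All 10 T cell markers, Cd3e and Cd4 among them, stood above the array median in every array, and array medians lay between 53.3 and 54.8 intensity units. Over 21 immediate-early and heat shock genes, taken as signs of stress or handling, the mean log2 intensity was 9.98, 9.91 and 8.94 for mutant EGFP-positive cells, 10.75, 9.8 and 10.81 for WT EGFP-positive cells, 9.52 in the mutant EGFP-negative array and 9.92 in the WT EGFP-negative array. Replicate 3 of the mutant and replicate 2 of the WT EGFP-positive arrays were thus the lowest of their groups, although single genes went different ways. WT EGFP-positive replicate 2 was the lowest of its group in Dusp1 (10.62, against 13.11 and 13.35) and Dnajb4 (8.42, against 10.44 and 10.51), but the highest in Hspa1b (10.75, against 9.11 and 7.74), Hspa1a and Dnajb1. Of the 21 genes, 1 rose and 5 fell in the mutant EGFP-positive arrays relative to the WT EGFP-positive arrays. The list's median difference was -0.93, against 0.02 over all genes. Their mean, used below as the stress covariate, thus differs in part with the label. Adjusting for it can also remove part of a difference between labels. Results that move with these genes are given with and without them.

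In the arrays labelled mutant EGFP-positive, Icos, Pdcd1 and Pdcd1lg2 rose and Cd28 fell, relative to those labelled WT EGFP-positive. These were 3 higher and 1 lower of 10 members, where limma called 10.4% of all genes higher and 6.02% lower, 16.5% in either direction. Over probe sets these were 5 higher and 3 lower of 18, where 7.35% of all were called higher, 5.39% lower and 12.7% in either direction. The median difference over the members was -0.17, against 0.02 over all genes. For the 4 called genes all arrays of one label lay on the same side of all arrays of the other, a separation that 34.2% of all genes show. The other 6 members did not pass, and Ctla4 had the widest spread between arrays of one label.

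In the arrays labelled WT EGFP-positive, Ctla4, Icos and Pdcd1lg2 rose relative to the WT EGFP-negative array. That is 3 members of 10, where 1.02% of all genes were called higher, 0.478% lower and 1.5% in either direction. Over probe sets it was 6 of 18, with 0.706% of all probe sets called higher, 0.395% lower and 1.1% in either direction. The median difference over the members was 1.06, against -0.02 over all genes, and 9 of 10 members stood higher in the EGFP-positive arrays. Between the mutant EGFP-positive arrays and the mutant EGFP-negative array limma called 0 members, against 0.0879% of all genes called. At an unadjusted p under 0.05 there were 2 members, for which no share over all genes is given. There the median over the members was 0.03. These comparisons share the EGFP-positive arrays with the comparison between alleles, and the fit gives a lone EGFP-negative array the spread of the groups with 3.

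**Figure D1:**
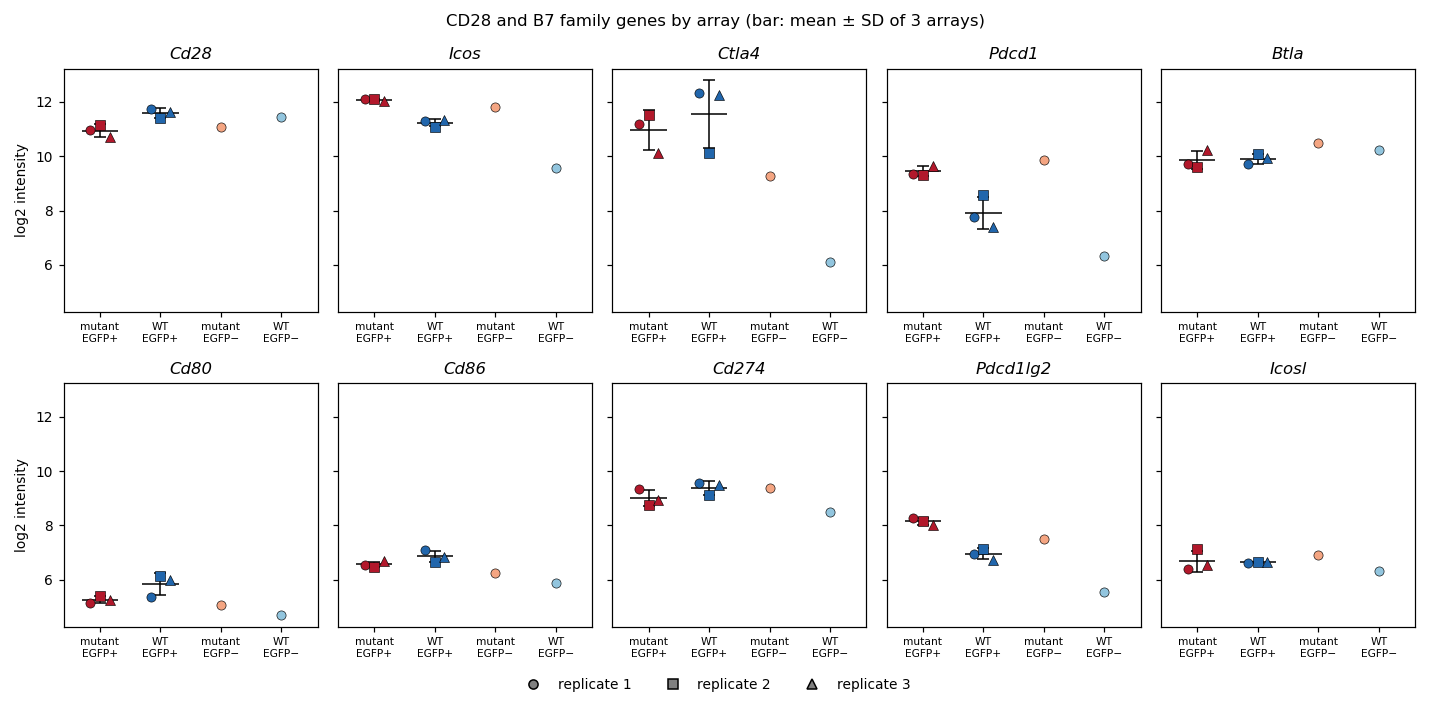
Log2 intensity of each member's main probe set (y axis) in the arrays of each label (x axis), 1 point per array with the shape giving the replicate and a bar giving the mean ± SD of 3 arrays. Icos, Pdcd1 and Pdcd1lg2 stand high in both mutant groups and lowest in the WT EGFP-negative array, and Ctla4 spreads over 2.21 log2 units among the WT EGFP-positive arrays.

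Among the receptors, Icos had 3 probe sets that gave the same order of groups. Its main probe set (1436598_at) read 12.09, 12.1 and 12.02 in the mutant EGFP-positive arrays, against 11.3, 11.08 and 11.34 in the WT EGFP-positive arrays. The mutant EGFP-negative array read 11.81 and the WT EGFP-negative array 9.55. The mutant arrays of either fraction thus stood above every WT array, and the WT EGFP-negative array stood apart below all others.

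Icos rose 1.78-fold in the mutant EGFP-positive arrays relative to the WT EGFP-positive arrays (12.07 ± 0.04 and 11.24 ± 0.14, SD, n = 3 each; difference 0.83, SE 0.11, limma adjusted p = 0.0032). Its other probe sets rose by 1.23 and 1.02 (adjusted p = 0.00032 and 0.0081). In the WT EGFP-positive arrays Icos rose 3.22-fold relative to the WT EGFP-negative array (difference 1.69, SE 0.16, limma adjusted p = 0.0048), with rises of 2.02 and 1.88 at the other probe sets. Between the mutant EGFP-positive arrays and the mutant EGFP-negative array it differed by 0.27 (SE 0.16, interval -0.11 to 0.64, limma adjusted p = 0.67). Intervals here and below are 95% intervals of the difference from the fit, not adjusted over genes.

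The difference between these EGFP comparisons was itself tested, as the interaction of allele and EGFP. For Icos it was -1.83 (SE 0.19, limma adjusted p = 0.045) at probe set 1421930_at, whose 3 arrays of a label differed by no more than 0.05. That is 1 of the members' 18 probe sets, where 0.04% of all probe sets were called. Of main probe sets 0 of 10 passed in limma, where 0.066% of all genes were called. At an unadjusted p under 0.05 there were 6, and 1 passed with a mean-variance trend and robust fit. No share over all genes is given for either count. The call at this probe set was lost without any single EGFP-positive array except WT EGFP-positive replicate 2 (adjusted p 0.12 to 0.14), and with the mean of the stress genes as a covariate (0.069) or a filter on low probe sets (0.052). It was weakest with the replicate block on the title numbers (0.27), and 8 of 15 alternatives ended it. The main probe set and the third gave -1.42 (SE 0.23, adjusted p = 0.15) and -1.63 (SE 0.35, adjusted p = 0.33).

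Pdcd1 read 9.36, 9.31 and 9.65 in the mutant EGFP-positive arrays, against 7.75, 8.56 and 7.41 in the WT EGFP-positive arrays. In EGFP-negative cells the value was 9.86 (mutant) and 6.32 (WT). All mutant arrays lay above all WT arrays, and the highest value of the series was in the mutant EGFP-negative array. Pdcd1 rose 2.89-fold in the mutant EGFP-positive arrays relative to the WT EGFP-positive arrays (9.44 ± 0.18 and 7.91 ± 0.59, SD, n = 3 each; difference 1.53, SE 0.27, limma adjusted p = 0.01). Over 17 alternatives this difference lay between 0.98 and 1.86, and its call held in all of them, at no more than 0.047. The value of 1.86 arose when the highest WT array, EGFP-positive replicate 2, was left out.

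Relative to the EGFP-negative arrays, Pdcd1 differed by -0.42 (SE 0.39, limma adjusted p = 0.8) for the mutant and by 1.59 (SE 0.39, 0.17) for the WT allele. The WT difference passed without WT EGFP-positive replicate 2 (1.26, adjusted p = 0.029) and with the stress covariate (1.94, 0.021), within 0.014 to 0.45 over the alternatives. The interaction was -2.01 (SE 0.55, adjusted p = 0.55).

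Ctla4 read 11.2, 11.53 and 10.12 in the mutant EGFP-positive arrays, against 12.33, 10.12 and 12.25 in the WT EGFP-positive arrays. EGFP-negative cells gave 9.26 with the mutant allele and 6.09 with the WT allele. The EGFP-positive groups overlapped, and each held 1 array at 10.12: mutant replicate 3 and WT replicate 2, which also had their groups' lowest stress gene means. Its moderated standard deviation, 0.75, lay at the 99.7 percentile of all genes.

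**Figure D2:**
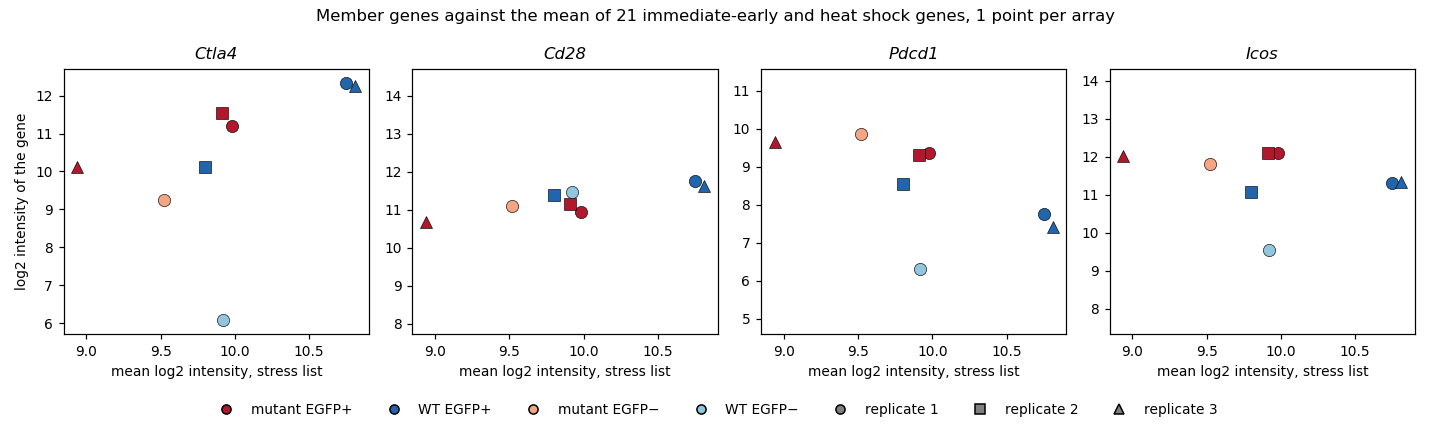
Log2 intensity of Ctla4, Cd28, Pdcd1 and Icos (y axes, each spanning 7 log2 units) against the mean log2 intensity of 21 immediate-early and heat shock genes (x axis), 1 point per array with colour for the label and shape for the replicate. Ctla4 is at 10.12 in the array of each EGFP-positive label that is lowest on the x axis, while Icos varies little within a label.

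Between the EGFP-positive labels Ctla4 differed by -0.61 (SE 0.61, interval -2.04 to 0.81, limma adjusted p = 0.63). With both arrays at 10.12 left out it differed by -0.92, and without the WT array alone by -1.34. These arrays are also the lowest of their groups in Ctla4 itself, so leaving them out narrows its spread by construction, and no p is given for Ctla4 without them. With the stress covariate the direction turned, to 0.82 (0.17). That covariate itself differs between the labels, so handling and label cannot be told apart by it. The part of the stress genes in this spread was not tested.

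The WT EGFP-positive arrays exceeded the WT EGFP-negative array 44.6-fold in Ctla4 (difference 5.48, SE 0.87, limma adjusted p = 0.031). In the WT EGFP-negative array Ctla4 stood at the 55.6 percentile of its probe sets, and whether this exceeds background was not tested. Leaving out mutant EGFP-positive replicate 1 or 2 (0.09 and 0.064) ended the call, as did leaving out replicate 1 or 3 of the WT (0.087 and 0.096), while the difference stayed between 4.57 and 6.2 over all alternatives. In the mutant EGFP-positive arrays Ctla4 differed from the mutant EGFP-negative array by 1.69 (SE 0.87, adjusted p = 0.6), and by 2.1 without the 2 arrays at 10.12. The interaction was -3.79 (SE 1.23, adjusted p = 0.67), and -4.1 without those arrays.

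Cd28 read 10.95, 11.16 and 10.69 in the mutant EGFP-positive arrays, against 11.75, 11.4 and 11.64 in the WT EGFP-positive arrays. In EGFP-negative cells the value was 11.09 (mutant) and 11.46 (WT). Every mutant array, of either fraction, lay below every WT array, over a span of group means of 0.66. In the arrays labelled mutant EGFP-positive Cd28 fell, to 10.93 ± 0.23 against 11.59 ± 0.18 in the WT EGFP-positive arrays (SD, n = 3 each; difference -0.66, SE 0.16, limma adjusted p = 0.031), and its other probe set fell by 0.80 (adjusted p = 0.018).

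Leaving out replicate 1 or 3 of the mutant (adjusted p 0.096 and 0.081) or of the WT EGFP-positive arrays (0.11 and 0.099) ended the Cd28 call, as did the stress covariate (-0.39, 0.23). That covariate itself differs between the labels, so handling and label cannot be told apart by it. Relative to the EGFP-negative arrays Cd28 differed by -0.15 for the mutant and by 0.14 for the WT allele (SE 0.22 each, limma adjusted p = 0.89 and 0.93). Of 10 T cell markers, Cd247 (-0.66, limma adjusted p = 0.0081) and Cd5 (-0.45, 0.025) fell like Cd28, and the other 8 did not pass. Among those 8, Thy1 (0.32) and Cd4 (0.17) differed the other way, and Cd3d (-0.05) and Cd3g (-0.02) hardly differed. Cd6, Lat, Cd3e and Cd2 lay at -0.34 to -0.27. The list's median difference was -0.28, and its summed intensity was 36210 to 38330 in the mutant EGFP-positive arrays and 40500 to 43440 in the WT EGFP-positive arrays, without overlap. Their part in the Cd28 value was not tested. Icos and Cd28, both costimulatory, thus differed in opposite directions between the EGFP-positive labels.

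Btla read 9.73, 9.62 and 10.24 in the mutant EGFP-positive arrays, against 9.7, 10.07 and 9.95 in the WT EGFP-positive arrays. EGFP-negative cells gave 10.49 with the mutant allele and 10.21 with the WT allele. The EGFP-positive labels overlapped and differed by -0.04 (SE 0.19, interval -0.48 to 0.39, limma adjusted p = 0.93). The difference from the EGFP-negative array was -0.63 (interval -1.24 to -0.02, adjusted p = 0.5) in the mutant and -0.3 (interval -0.91 to 0.31, 0.83) in the WT EGFP-positive arrays. A span of 0.63 over the 4 group means was among the smallest of the members, with Icosl (0.6) and Cd28.

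**Figure D3:**
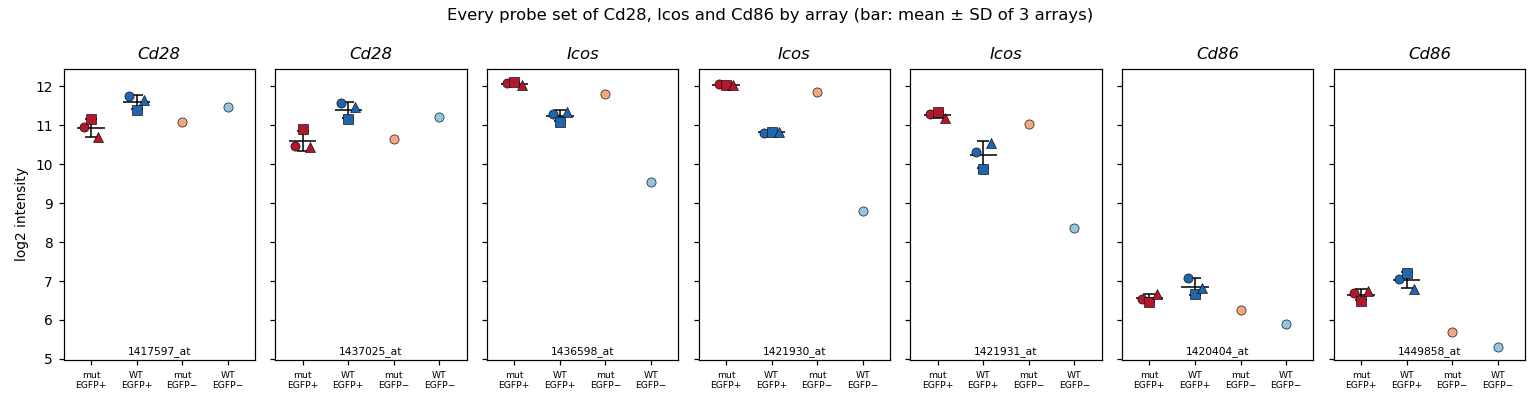
Log2 intensity (y axis) at every probe set of Cd28, Icos and Cd86 in the arrays of each label (x axis), with a bar for the mean ± SD of 3 arrays and shapes for replicates (circle 1, square 2, triangle 3). The 3 Icos probe sets place the WT EGFP-negative array at 9.55, 8.79 and 8.37, below every other array.

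Of the PD-1 ligands, Pdcd1lg2 read 8.27, 8.17 and 8.02 in the mutant EGFP-positive arrays, against 6.96, 7.14 and 6.74 in the WT EGFP-positive arrays. In EGFP-negative cells the value was 7.51 (mutant) and 5.54 (WT). The 4 groups were fully separate in this gene. It rose 2.31-fold in the mutant EGFP-positive arrays relative to the WT EGFP-positive arrays (8.15 ± 0.12 and 6.94 ± 0.2, SD, n = 3 each; difference 1.21, SE 0.14, limma adjusted p = 0.0014).

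In the WT EGFP-positive arrays Pdcd1lg2 rose by 1.4 relative to the WT EGFP-negative array (SE 0.2, limma adjusted p = 0.019). That array stood at the 46.2 percentile of its probe sets, so no fold is given. The call moved just past the threshold without mutant EGFP-positive replicate 1 or 2 (0.051 and 0.052) or WT EGFP-positive replicate 1 (0.065). The mutant EGFP-positive arrays differed from the mutant EGFP-negative array by 0.64 (SE 0.2, interval 0.19 to 1.09, adjusted p = 0.35).

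Cd274, the other PD-1 ligand, read 9.32, 8.74 and 8.93 in the mutant EGFP-positive arrays, against 9.55, 9.1 and 9.48 in the WT EGFP-positive arrays. EGFP-negative cells gave 9.38 with the mutant allele and 8.5 with the WT allele. The EGFP-positive labels overlapped and differed by -0.38 (SE 0.19, interval -0.82 to 0.05, limma adjusted p = 0.26), the other way from Pdcd1lg2. The WT EGFP-positive arrays differed from the WT EGFP-negative array by 0.88 (SE 0.26, adjusted p = 0.29).

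Cd86 read 6.55, 6.46 and 6.67 in the mutant EGFP-positive arrays, against 7.08, 6.66 and 6.83 in the WT EGFP-positive arrays. In EGFP-negative cells the value was 6.26 (mutant) and 5.89 (WT). The other probe set (1449858_at) read 6.7, 6.49 and 6.75 in the mutant EGFP-positive arrays, against 7.05, 7.21 and 6.8 in the WT EGFP-positive arrays, with 5.68 and 5.31 in the mutant and WT EGFP-negative arrays. At both, every EGFP-positive array stood above both EGFP-negative arrays.

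Relative to the WT EGFP-negative array, Cd86 differed by 0.97 in the WT EGFP-positive arrays at the main probe set (SE 0.19, limma adjusted p = 0.084), and rose by 1.71 at the other (SE 0.2, adjusted p = 0.0091). The main probe set passed in 4 of 16 alternatives, with differences of 0.7 to 1.34 and adjusted p of 0.0041 to 0.21 over all of them. These were array weights (0.049), the mean of both probe sets (1.34, 0.0041), WT EGFP-positive replicate 2 left out (1.07, 0.029) and that array left out together with mutant EGFP-positive replicate 3 (0.022). In the mutant EGFP-positive arrays these differences from the mutant EGFP-negative array were 0.3 and 0.97 (adjusted p = 0.7 and 0.19). Between the EGFP-positive labels they were -0.29 and -0.37 (adjusted p = 0.24 and 0.15).

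Cd80 lay low at all 4 probe sets, the highest at the 42.8 percentile of all probe sets by its mean. Its main probe set read 5.14, 5.4 and 5.25 in the mutant EGFP-positive arrays, against 5.37, 6.15 and 5.99 in the WT EGFP-positive arrays, with 5.05 and 4.68 in the mutant and WT EGFP-negative arrays. The difference between the EGFP-positive labels was -0.57 (SE 0.2, limma adjusted p = 0.12), and it passed without WT EGFP-positive replicate 1 (-0.81, 0.02). Probe set 1432826_a_at fell by 0.61 (SE 0.1, adjusted p = 0.0085), to 4.33 ± 0.1 in the mutant EGFP-positive arrays against 4.94 ± 0.02 in the WT EGFP-positive arrays (SD, n = 3 each). The remaining Cd80 probe sets differed by 0.07 and -0.24 and did not pass. No detection calls were used here, so whether these low values exceed background was not tested.

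Icosl, the ligand of ICOS, read 6.39, 7.12 and 6.54 in the mutant EGFP-positive arrays, against 6.61, 6.64 and 6.65 in the WT EGFP-positive arrays. EGFP-negative cells gave 6.92 with the mutant allele and 6.32 with the WT allele. The EGFP-positive labels overlapped and differed by 0.05 (SE 0.19, interval -0.39 to 0.48, limma adjusted p = 0.92). Its other probe set, near the bottom of the scale at 4.12 to 4.75 in all arrays, differed by -0.24 (0.41).

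**Figure D4:**
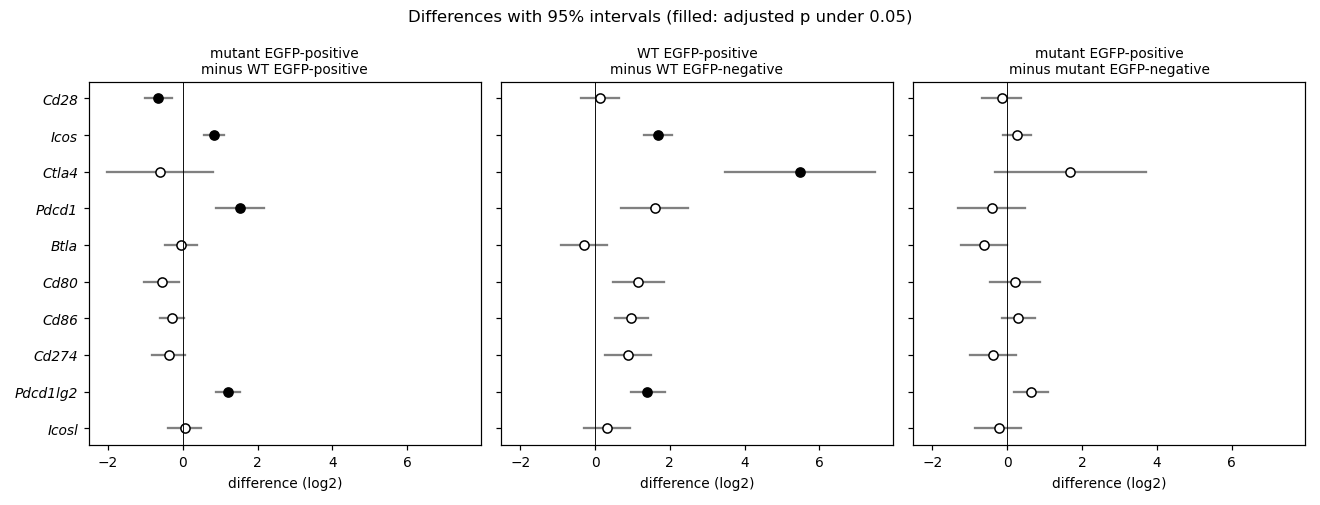
Difference in log2 intensity (x axis) of each member's main probe set (y axis) in 3 comparisons named above the panels, with 95% intervals and filled points where the limma adjusted p is under 0.05. Filled points are Cd28, Icos, Pdcd1 and Pdcd1lg2 in the first panel, Icos, Ctla4 and Pdcd1lg2 in the second and none in the third.

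Between alleles, the EGFP-negative cells have 1 array each and are described by values alone. Icos stood 4.77-fold, Ctla4 9.05-fold and Pdcd1 11.6-fold higher in the mutant EGFP-negative array than in the WT EGFP-negative array, and Pdcd1lg2 stood 1.97 log2 units higher. These are 4 of 10 members above 2-fold, where 3.78% of all genes were that much higher. With 1 array a label there is no replicate check on these differences. Ctla4 and Pdcd1 stood at the 55.6 and 58.8 percentile of the WT EGFP-negative array, and whether these values exceed background was not tested. Regulatory T cell markers differed alongside: 7 of 9 stood over 2-fold higher in the mutant EGFP-negative array, among them Ikzf2 (11.48 against 7.98 in the WT EGFP-negative array), Tnfrsf4 (11.15 against 8.43) and Itgae (6.31 against 4.66). The mean over the 9 was 9.11 in the mutant and 7.36 in the WT EGFP-negative array, and its part in the members' values was not tested. The further members differed by 0.87 (Cd274), 0.6 (Icosl), 0.38 (Cd86), 0.37 (Cd80) and 0.29 (Btla), and Cd28 by -0.37.

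Because the B7 ligands are best known from B cells and dendritic cells, markers of these cells are given beside them. The summed intensity of 9 B cell markers was 359.2 to 451 in the mutant EGFP-positive arrays and 395.5 to 517 in the WT EGFP-positive arrays, against 511 and 412.3 in the mutant and WT EGFP-negative arrays. In no array did more than 4 of these markers exceed the array median. For 16 myeloid and dendritic cell markers the sums were 1226 to 1536 in the mutant EGFP-positive and 1326 to 2512 in the WT EGFP-positive arrays, against 1681 and 1055 in the mutant and WT EGFP-negative arrays. The highest sum was in WT EGFP-positive replicate 3, where Csf1r, a receptor of macrophages, read 9.85. Between the EGFP-positive labels 0 of 9 and 0 of 16 of these markers passed in limma. Other lists did differ, beside the regulatory T cell, T cell and stress genes given above. Of 5 NK cell markers Klrd1, Klrk1 and Eomes rose, with sums of 436.2 to 582.6 in the mutant EGFP-positive and 159.7 to 218.5 in the WT EGFP-positive arrays, against 703 and 338.9 in the mutant and WT EGFP-negative arrays. Of 8 MHC class II genes 3 rose, H2-Ab1 (1.23), H2-Oa (1.08) and H2-DMa (0.86), and 1 fell. This was H2-Ob (-4.63), at 5.37 in the mutant EGFP-positive against 9.99 in the WT EGFP-positive arrays. The list's median difference was 0.61. With H2-Ob included, the list's sums were 2222 to 2332 in the mutant EGFP-positive and 2134 to 2451 in the WT EGFP-positive arrays. They were 4123 and 2034 in the mutant and WT EGFP-negative arrays. The sums of the 2 CD8 genes were 156.2 to 628 in the mutant EGFP-positive and 138.5 to 217.7 in the WT EGFP-positive arrays, against 559.3 and 281.7 in the mutant and WT EGFP-negative arrays, and neither passed. The part of such cells in the members' values was not tested, and in sorted bulk RNA fewer cells with a transcript and less of it per cell cannot be told apart.

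In RefSeq's annotation of GRCm38.p6, Cd28, Ctla4 and Icos follow each other on chromosome 1 with no other protein-coding gene between them, and Cd274 and Pdcd1lg2 are likewise neighbours on chromosome 19. Between the EGFP-positive labels Icos rose and Cd28 fell (-0.66), while Ctla4 did not pass, with an interval of -2.04 to 0.81 that covers the Cd28 value. Pdcd1lg2 rose by 1.21, and Cd274 differed by -0.38 (interval -0.82 to 0.05) and did not pass. Differences between neighbours were not tested. Promoter sequences were found for 7 of the 10 members in RefSeq's table. Those of the 3 members with the widest span over the groups that the table holds are shown, as the 250 bases before the start, 5′ to 3′ on the gene's strand. Capitals mark matches on either strand to GGAAA, the core that NFAT factors bind below the T cell receptor.

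Ctla4, chr1:60908775-60909024 (+): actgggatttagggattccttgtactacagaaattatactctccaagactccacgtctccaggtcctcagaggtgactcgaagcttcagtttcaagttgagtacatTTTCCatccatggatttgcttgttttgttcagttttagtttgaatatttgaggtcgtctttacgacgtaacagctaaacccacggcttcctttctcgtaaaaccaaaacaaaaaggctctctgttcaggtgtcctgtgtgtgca
Pdcd1, chr1:94052554-94052803 (-): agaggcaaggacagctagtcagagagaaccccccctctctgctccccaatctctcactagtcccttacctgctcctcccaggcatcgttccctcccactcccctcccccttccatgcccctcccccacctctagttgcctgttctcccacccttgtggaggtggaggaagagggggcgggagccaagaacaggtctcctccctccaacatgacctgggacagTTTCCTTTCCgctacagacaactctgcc
Pdcd1lg2, chr19:29410669-29410918 (+): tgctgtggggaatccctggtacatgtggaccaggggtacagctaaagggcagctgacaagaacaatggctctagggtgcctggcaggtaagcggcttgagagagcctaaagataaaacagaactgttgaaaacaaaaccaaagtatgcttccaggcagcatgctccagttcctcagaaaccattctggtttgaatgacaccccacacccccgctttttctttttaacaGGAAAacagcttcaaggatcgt

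GGAAA was in 4 of the 7 member promoters, those shown and that of Cd274, and in 55.6% of all 27025 promoters. In Pdcd1 there were 2 adjoining matches, starting 28 and 23 bases before the start. The AP-1 motif TGANTCA was in 1 of 7, that of Cd80, and in 6.87% of all promoters, and the forkhead motif GTAAACA was in 0 of 7 and in 3.09%. Both strands were read, and no match overlapped that of another motif.

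For each member whose group means spanned over 2 log2 units, the 3 genes of most similar profile were taken, by the root mean square difference over 8 arrays after centring each gene. Closest to Pdcd1lg2 were Myo1f, an unconventional myosin, and Zdhhc2, a palmitoyltransferase (0.1 each), and the fatty acid binding protein gene Fabp5 (0.14). Closest to Icos were Rilpl2 (0.16), the receptor phosphatase gene Ptprs (0.17) and the integrin gene Itgb1 (0.18). For Pdcd1 they were the inflammatory caspase genes Casp4 and Casp1 and Ncoa7 (0.34 each). For Ctla4 they were the phosphatase gene Dusp4 (0.47), the proapoptotic gene Pmaip1 (0.53) and Plagl1 (0.58), so that its closest genes lay farther from it.

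Of 9 measured genes for other B7 molecules and for binding partners of the members, 2 rose and 1 fell. This compares the mutant EGFP-positive with the WT EGFP-positive arrays, where limma called 10.4% of all genes higher and 6.02% lower. The list's median difference was 0, against 0.02 over all genes. Tnfsf14 encodes LIGHT, which shares its receptor with BTLA, and rose by 2.57 (SE 0.19, limma adjusted p = 0.00027), with 2.34 at its other probe set. It read 7.78 in the mutant EGFP-positive arrays against 5.22 in the WT EGFP-positive arrays, the latter under the median of all probe sets. Cd160, another partner of that shared receptor, rose by 2.45 (SE 0.12, 6.5e-05), with 0.31 to 1.86 at its other probe sets. Cd160 is also made by NK cells, of whose 5 markers 3 rose, while Ncr1 (0.08, adjusted p = 0.81) and Klra8 (0.05, 0.86) did not pass, and their part in it was not tested. Rgmb, a binding partner of PD-L2, fell by 0.79 (limma adjusted p = 0.034), with -0.83 to -0.15 at its other probe sets. It read 5.12 in the mutant EGFP-positive arrays, under the median of all probe sets, against 5.91 in the WT EGFP-positive arrays. The call was lost without any single EGFP-positive array except WT EGFP-positive replicate 2 (up to 0.12), and the stress covariate gave -0.4 (0.21). The shared receptor itself, Tnfrsf14, differed by 0.19 (0.68). Vsir, a further B7 family gene, did not pass at its main probe set (-0.34, limma adjusted p = 0.29) but differed by -1.02 at its other.

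Of 23 measured genes of activating signalling below CD28 and ICOS, 2 rose and 6 fell, with a median of -0.08. Among all genes, 10.4% were called higher and 6.02% lower in that comparison. Nfatc1 did not pass at its main probe set (-0.3, limma adjusted p = 0.14), but differed by 1.04 to 1.43 at its 4 other probe sets. Pik3r1, a regulatory subunit of the lipid kinase PI3K, fell by 1.21 (SE 0.15, limma adjusted p = 0.0021), and Grap2, an adaptor that binds the CD28 tail, fell by 1.04 (SE 0.11, 0.00095). Akt1, a kinase downstream of PI3K, rose by 0.77 (SE 0.14, 0.01), with -0.23 to 0.91 at its other probe sets. Il2, the cytokine that CD28 costimulation promotes, rose by 1.07 (SE 0.14, 0.0026), to 5.27 ± 0.22 in the mutant EGFP-positive arrays against 4.2 ± 0.1 in the WT EGFP-positive arrays (SD, n = 3 each), both under the median of all probe sets.

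Of 21 measured genes of inhibitory signalling, traffic and turnover of these receptors, 3 rose and 2 fell, with a median of -0.14. Again, 10.4% of all genes were called higher and 6.02% lower. Trat1, an adaptor that carries CTLA-4 to the surface, fell by 1.52 (SE 0.16, limma adjusted p = 0.001). Ptpn11, the phosphatase SHP-2 that PD-1 recruits, rose by 1.03 (SE 0.12, 0.0014), with 0.01 to 0.76 at its other probe sets. Rc3h1, which represses Icos mRNA, fell by 0.63 (0.035), and Cmtm4, which stabilises PD-L1, rose by 0.53 (0.043). The calls of both were lost without any of 4 or more single arrays (up to 0.12 and 0.13). Of 16 alternatives, 6 ended the Rc3h1 call and 8 the Cmtm4 call, with limma adjusted p up to 0.17 and 0.3. Between the WT EGFP-positive arrays and the WT EGFP-negative array limma called 0 genes of these 3 lists, and 1.5% of all genes. A mean-variance trend and robust fit also called 0 of the 3 lists. At an unadjusted p under 0.05 there were 2, 8 and 0, with no share over all genes given.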

How the data were processed

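Each deposited value is a linear intensity per probe set that the authors made by RMA, as the submitters' processing notes state, with no version given. RMA compresses differences at low intensity. Log2 was taken without a pseudocount. Without 64 control probe sets, 45037 were tested. The platform annotation gave 1 symbol for 34945 of them, updated through gene IDs.

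The model, in limma 3.58.1 (R 4.3.3), had one mean per label over 8 arrays (4 residual and 3.72 prior degrees of freedom). Two-sided p-values were adjusted by Benjamini-Hochberg over every probe set tested, at a threshold of 0.05. The fit was tested on simulated arrays. There a log2 difference of 1 was recovered in 89.6% of changed probe sets between the EGFP-positive labels. It was recovered in 28.4% for the WT EGFP comparison, 38.8% for the mutant EGFP comparison and 3% for the interaction. A lack of calls in those 3 comparisons thus does not show a lack of difference. The number of arrays limits precision. The members and lists were chosen with earlier results of these data known. All 10 members were named, and of each pathway list up to 4 genes past the threshold by size. Alternatives covered filter, pseudocount, normalization, variance model, probe set choice, single arrays left out, a stress covariate and a block on the title numbers. Probe-level data were not used here.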

Additional observations from a re-analysis of the deposited data

Results flagged for a closer look

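The EGFP comparisons of the alleles differed in Icos at probe set 1421930_at, by -1.83 on the log2 scale (SE 0.19, limma adjusted p = 0.045 for the interaction). It was singled out because the EGFP-positive minus EGFP-negative difference was 0.18 for the mutant allele and 2.02 for the WT allele. Each value rests on 1 EGFP-negative array, and the estimate stayed between -1.87 and -1.76 over the 15 alternatives while its adjusted p ranged from 0.012 to 0.27.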

How the results depend on the processing

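Over 944 recomputed values of members and named pathway genes, 860 kept their direction and side of the threshold, 60 lost a call, 16 gained one and 8 changed sign. Many of the 944 had no call to lose, among them all 159 of the mutant EGFP comparison. The 60 are thus a larger share of the calls than of the 944. The calls of Icos, Pdcd1 and Pdcd1lg2 between the EGFP-positive labels held under all 17 alternatives. The count of called members stayed at 3 to 5 in that comparison. For WT EGFP-positive against WT EGFP-negative arrays, 3 called members became 1 with a pseudocount of 32, 0 with the replicate block on the title numbers, 5 without WT replicate 2 and mutant replicate 3 together (each the lowest of its EGFP-positive group in the stress mean and in Ctla4, so that leaving them out narrows the spread of Ctla4 by construction) and 1 to 5 without single arrays. For the mutant EGFP comparison 0 became 1 without those arrays. For the interaction 0 became 1 with a trend and robust fit, 1 with the mean of all probe sets and 1 without those arrays. The cause was not tested. Signs changed in values that had not passed: between the EGFP-positive labels in Ctla4 (0.82, stress covariate), Icosl (-0.1 with the mean of all probe sets, -0.17 to 0.2 without single arrays) and Btla (-0.23 to 0.08 without single arrays), in Cd28 for the WT EGFP comparison (-0.04, stress covariate) and in Cd80 for the mutant EGFP comparison (-0.08, replicate block). Under that block Cd28 lost its call between the EGFP-positive labels (adjusted p = 0.073), and Icos (0.063), Ctla4 (0.17) and Pdcd1lg2 (0.085) lost theirs in the WT EGFP comparison. The title numbers share only their leading digits, and deviations of arrays with the same digits correlated at 0.121, 0.046 and -0.102, so they are not shown to pair. Over all features the calls ranged from 3355 to 7972 (5734 as reported) between the EGFP-positive labels, from 83 to 1845 (496) and from 1 to 325 (34) for the WT and mutant EGFP comparisons and from 0 to 171 (18) for the interaction. Without a detection call, low values of Cd80 and Il2 have no lower bound.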
